A study of Mus musculus with 8 samples.

Results

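The Notch ligands, receptors and Hes/Hey targets of the renal vesicle were followed in whole mouse kidneys at E13.5. They comprise 9 genes: the receptors Notch1 and Notch2, the ligands Dll1 and Jag1, the receptor-modifying enzyme Lfng, and the transcription factors Hes1, Hes5, Hey1 and Heyl. Their probes were found by the RefSeq accession of each array probe, whatever their values, which gave 14 of the 41174 probes and 9 of the 17305 named genes on the array. One group was mutant kidneys (UB HDAC1,2-/-), with both histone deacetylase genes deleted in the epithelium of the ureteric bud (UB), from which the collecting ducts arise. The other group was wild type kidneys, and both came from embryos of a CD1 C57BL/6 mix. Each of 4 biological replicates paired 1 mutant and 1 wild type RNA on 2 two-colour Agilent arrays with the dyes exchanged, which gave 8 arrays. The labels give neither the Cre driver nor the number of kidneys in an RNA, and p-values cover only these 4 replicates. Each limma p rests on the spread of a probe between them, moderated towards that of all probes tested.

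In Notch signalling, a ligand on one cell binds a receptor on its neighbour. Proteases then release the intracellular part of the receptor, which joins the DNA-binding protein RBPJ in the nucleus and switches on genes of the Hes and Hey families, themselves repressors. In the kidney the pathway acts in the renal vesicle, the first epithelial structure of a nephron, where it takes part in the formation of proximal segments and glomerulus. The ureteric bud is a separate lineage that sends Wnt signals to the nephron-forming mesenchyme.

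RefSeq promoter windows of GRCm38.p6, from 250 bases before to 50 bases after the transcript start, were at hand for 6 of the 9 genes, in 7 windows: Notch1, Notch2, Dll1, Jag1, Lfng and Hes5. Each was searched on both strands for GTGGGAA, a letter form of the RBPJ motif. Those letters were found on either strand in 2097 of 32851 windows of the same length (6.4%). Among the members' windows they were found in that of Hes5, at chr4:154960673-154960972 on the plus strand, and that of Lfng, at chr5:140607091-140607390 on the plus strand. Hes5 and Lfng are shown because they are the target and the modifying enzyme whose windows hold the motif, with the letters in capitals. Counted from the transcript start, the first letters of the matches in Hes5 lie at -226, on the minus strand and so read as TTCCCAC, and at -83 on the plus strand. The single match in Lfng lies at -109. A match is a description of the letters and not a binding site.
Hes5: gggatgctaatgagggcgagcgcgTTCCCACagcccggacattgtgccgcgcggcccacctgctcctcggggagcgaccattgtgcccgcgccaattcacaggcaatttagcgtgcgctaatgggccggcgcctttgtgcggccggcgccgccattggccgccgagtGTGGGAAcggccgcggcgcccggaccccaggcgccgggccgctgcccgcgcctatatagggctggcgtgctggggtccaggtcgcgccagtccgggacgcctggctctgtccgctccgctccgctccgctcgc
Lfng: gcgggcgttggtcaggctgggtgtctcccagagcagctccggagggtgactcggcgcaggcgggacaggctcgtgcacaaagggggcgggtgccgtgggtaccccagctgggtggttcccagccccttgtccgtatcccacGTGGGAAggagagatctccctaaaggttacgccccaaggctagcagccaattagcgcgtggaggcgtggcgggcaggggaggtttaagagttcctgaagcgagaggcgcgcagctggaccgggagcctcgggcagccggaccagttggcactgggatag

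Between 81.7% and 95.8% of the probes on an array passed the scanner software's flag for signal well above background in the mutant channel, and between 78.9% and 97% in the wild type channel. All 14 member probes were well above background in both channels on all 8 arrays and passed the filter on dim probes, and no spot was saturated. All ratios are log2 of labelled mutant RNA over labelled wild type RNA, taken from the dye labels. The direction remains unsettled. The authors' deposited table, which states no direction, holds 496 log2 ratios, of which 449 equal the sign-turned value found here within 0.01 and 0 equal the value as labelled. If its ratios are mutant over wild type, every sign below turns. Hdac2, one of the deleted genes, gave log2 ratios of 0.60, 0.60, 0.74 and -0.61 in replicates 1 to 4 (mean 0.33 ± 0.63, SD, n = 4, limma adjusted p 0.757), so its level did not show the labelled loss. Hdac2 was deleted in the bud alone and was measured here in the whole kidney. Replicate 2 stood apart, since the SD of its log2 ratios over all probes was 0.648, against 0.226 in replicate 1 and 0.276 in replicates 3 and 4. Replicates 1 and 2 lay on one slide and replicates 3 and 4 on another.

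The comparison asks which transcripts differ when the bud lacks both enzymes. No member probe passed the limma test at a Benjamini-Hochberg adjusted p of 0.05, which 7 of 39520 probes did (0.0177%). Heyl had the largest ratios of the members, above 0 on all 8 arrays with both of its probes, and Hes5 and Hes1 had positive means with wide spreads. The means of the receptors and of the dimmer Jag1 probe were small against their spreads. The brighter Jag1 probe averaged 0.21 ± 0.26 (SD, n = 4). At an unadjusted limma p under 0.05, 3 of the 14 probes were higher in the RNA labelled mutant and 0 lower, where the shares over all probes were 3.15% higher and 2.86% lower. These 3 probes belong to 2 genes, Heyl and Hes5, and they were also at least 1.4-fold higher, as were 0.903% of all probes. Of the 14 member probes, 6 were above 0 in 4 of 4 replicates (10.7% of all probes) and 1 was below 0 in 4 of 4 (5.64%). The median log2 ratio of the member probes was 0.12, and that of all probes tested was 0.02. With normexp background correction and loess the members' median was 0.020, and within slide 1 it was 0.22. In whole tissue, fewer cells of a type and less RNA per cell cannot be told apart.

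**Figure D1:**
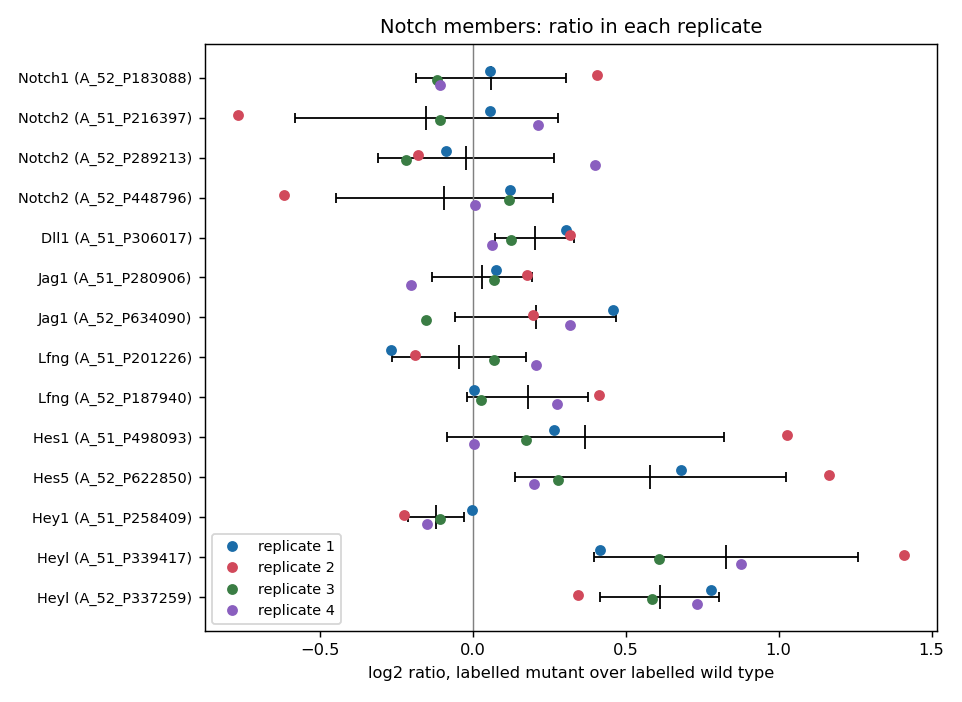
Log2 ratio of labelled mutant RNA over labelled wild type RNA for each of the 14 member probes (rows), with 1 point per replicate (mean of its 2 dye orientations), a black tick at the mean and bars of 1 SD over 4 replicates. All 8 points of the Heyl probes lie right of 0, between 0.35 and 1.41, while the Notch1 and Notch2 points lie on both sides of 0.

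Heyl, a repressor of the Hey family and a Notch target in several tissues, was measured with 2 probes. With probe A_51_P339417, the processed signal was 607, 639, 704 and 948 in the RNAs labelled mutant of replicates 1 to 4, and 455, 241, 462 and 516 in the RNAs labelled wild type. The lowest RNA labelled mutant was above the highest RNA labelled wild type, so the groups did not overlap. Over all probes, 0.42% were separated in that direction. The log2 ratios were 0.42, 1.41, 0.61 and 0.88, with a mean of 0.83 ± 0.43 (SD, n = 4), or 1.77-fold. The limma adjusted p was 0.464 and the unadjusted p 0.00333. The size of this mean exceeded that of 99.6% of all probes tested. In the authors' deposited table the same accession stands at -0.827.

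With the other Heyl probe, A_52_P337259, the processed signal was 5948, 4243, 6606 and 6542 in the RNAs labelled mutant, and 3465, 3340, 4402 and 3936 in the RNAs labelled wild type. The groups overlapped through replicate 2, whose RNA labelled mutant was below the RNA labelled wild type of replicate 3. Within each replicate the RNA labelled mutant was the higher. The log2 ratios were 0.78, 0.35, 0.59 and 0.73, with a mean of 0.61 ± 0.20 (SD, n = 4), or 1.53-fold. The limma adjusted p was 0.349 and the unadjusted p 0.00153, and the authors' deposited table gives -0.611 for that accession. The exact sign-flip permutation test over 4 replicates gave each Heyl probe the smallest two-sided p it can give, which is above the threshold of 0.05.

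The Heyl probes differed in where they were high. Replicate 2 gave the highest ratio of A_51_P339417 and the lowest of A_52_P337259. On single arrays the first probe ranged from 0.36 to 1.56 and the second from 0.19 to 0.97, and 2.24% of all probes were above 0 on all 8 arrays. Within slide 1 the means were 0.91 and 0.56, and within slide 2 they were 0.74 and 0.66. A fit took the 8 arrays as separate observations with the replicate as a block. It called both Heyl probes, at limma adjusted p of 0.0495 and 0.0440. In all it called 133 of 39520 probes, where the main fit called 7. A fit with weights for the replicates called both at limma adjusted p of 0.0359 and 0.0138, and called 462 of 39520 probes in all. Those weights were estimated from these same ratios, at 4.07 for replicate 3 and 0.18 for replicate 2. Over the alternatives run, the adjusted p of the first probe lay between 0.0359 and 0.999 and that of the second between 0.0138 and 0.999.

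**Figure D2:**
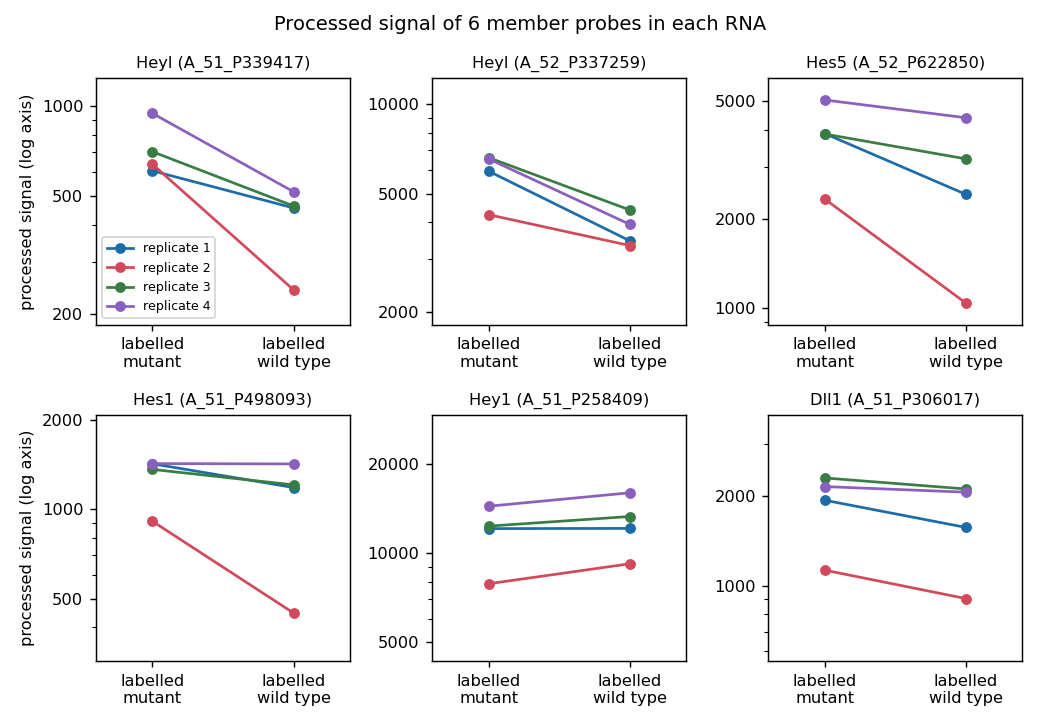
Processed signal (scanner units, log axis) of 6 member probes in each RNA, with the 4 RNAs labelled mutant left of the 4 RNAs labelled wild type and a line joining the 2 RNAs of a replicate. For Heyl probe A_51_P339417 all RNAs labelled mutant (607 to 948) lie above all RNAs labelled wild type (241 to 516), while for the other probes the groups overlap.

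Hey1, the other Hey gene of the set and likewise a repressor downstream of Notch, stood on the other side of 0. Its processed signal was 12100, 7887, 12335 and 14394 in the RNAs labelled mutant, and 12118, 9210, 13291 and 15976 in the RNAs labelled wild type. Averaged over the dye orientations, the RNA labelled mutant was the lower in every replicate, but the groups overlapped widely. The log2 ratios were -0.0022, -0.22, -0.11 and -0.15, with a mean of -0.12 ± 0.09 (SD, n = 4) and a limma adjusted p of 0.757. On single arrays Hey1 was below 0 on 5 of 8 and above 0 on 3, from -0.52 to 0.19. The dye orientations differed in sign in replicates 1, 2 and 3. With normexp background correction and loess the mean turned to 0.03. The mean ratio of the Heyl probes exceeded that of Hey1 by at least 0.60 in each of the 4 replicates, a description of the difference and not a test.

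Hes5, a repressor best known from neural progenitors and also expressed in the renal vesicle, had a processed signal of 3880, 2334, 3867 and 5037 in the RNAs labelled mutant, and 2421, 1041, 3189 and 4388 in the RNAs labelled wild type. The RNA labelled mutant was the higher in each replicate, and the groups overlapped. The log2 ratios were 0.68, 1.16, 0.28 and 0.20, with a mean of 0.58 ± 0.44 (SD, n = 4), or 1.50-fold. The limma adjusted p was 0.722 and the unadjusted p 0.0178. The mean without replicate 2 was 0.39. Within slide 1 the mean was 0.92, against 0.24 within slide 2, so the ratio was larger in replicates 1 and 2.

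Hes1, the more broadly expressed Hes repressor, had a processed signal of 1423, 911, 1362 and 1425 in the RNAs labelled mutant, and 1183, 447, 1208 and 1421 in the RNAs labelled wild type. Replicate 2 held the only wide gap, and replicate 4 was level. The log2 ratios were 0.27, 1.03, 0.17 and 0.0034, with a mean of 0.37 ± 0.45 (SD, n = 4), or 1.29-fold, and a limma adjusted p of 0.757. The mean without replicate 2 was 0.15. Within slide 1 it was 0.65 and within slide 2 it was 0.09. The ratio of Hes5 exceeded that of Hes1 by 0.41, 0.14, 0.10 and 0.20 in the 4 replicates. The mean of Hes1 was 0.15 on arrays with the mutant RNA in Cy5 and 0.58 on arrays with it in Cy3, where Hes5 had 0.64 and 0.52.

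**Figure D3:**
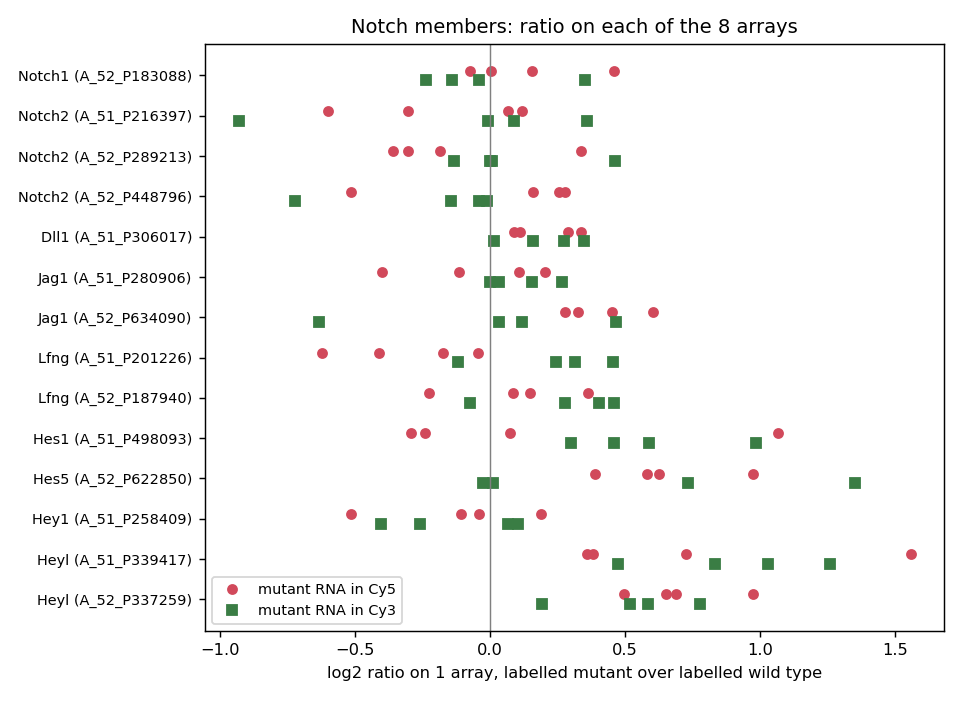
Log2 ratio of labelled mutant RNA over labelled wild type RNA on each of the 8 arrays (points) for the 14 member probes (rows), with arrays that carry the mutant RNA in Cy5 as circles and in Cy3 as squares. All points of Dll1 and of the Heyl probes lie right of 0, while the Lfng probe A_51_P201226 averages -0.31 in one dye orientation and 0.22 in the other.

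Dll1, a transmembrane ligand that the renal vesicle expresses, was printed in 10 spots on each array. Its processed signal was 1939, 1127, 2305 and 2156 in the RNAs labelled mutant, and 1570, 904, 2116 and 2064 in the RNAs labelled wild type. The groups overlapped, although the RNA labelled mutant was the higher in each replicate. The log2 ratios were 0.30, 0.32, 0.12 and 0.06, with a mean of 0.20 ± 0.13 (SD, n = 4), or 1.15-fold, and a limma adjusted p of 0.757. It was above 0 on all 8 arrays, from 0.01 to 0.35. The mean was 0.31 within slide 1 and 0.09 within slide 2. On these arrays the SD over its spots lay between 0.0233 and 0.444, after 4 spots flagged as outliers by the scanner software were left out.

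Jag1, the other transmembrane ligand, was measured with 2 probes that differed. With A_52_P634090 the processed signal was 4917, 4305, 6447 and 7833 in the RNAs labelled mutant, and 3576, 3752, 7176 and 6280 in the RNAs labelled wild type. The RNA labelled mutant was the higher in replicates 1, 2 and 4 and the lower in replicate 3. The mean log2 ratio was 0.21 ± 0.26 (SD, n = 4) with this probe and 0.03 ± 0.16 with A_51_P280906, whose processed signal lay between 59.2 and 89.4 in the RNAs labelled mutant and between 60.6 and 85.2 in the RNAs labelled wild type. The limma adjusted p was 0.757 for the first and 0.909 for the second. On arrays with the mutant RNA in Cy5 the mean of A_52_P634090 was 0.42, and on arrays with it in Cy3 it was -0.0046.

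Notch1, a receptor, had a processed signal of 1464, 1304, 1746 and 1280 in the RNAs labelled mutant, and 1408, 984, 1895 and 1380 in the RNAs labelled wild type. It was higher in the RNA labelled mutant in replicates 1 and 2 and lower in replicates 3 and 4. The mean log2 ratio was 0.06 ± 0.24 (SD, n = 4), with a limma adjusted p of 0.851. Its sign turned within slide 2, to -0.11.

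Notch2, the receptor that nephron segmentation in the mouse depends on most, was measured with 3 probes. With A_52_P289213 the processed signal was 2789, 2915, 3214 and 2842 in the RNAs labelled mutant, and 2965, 3302, 3742 and 2153 in the RNAs labelled wild type. Replicates 1 to 3 were lower in the RNA labelled mutant and replicate 4 was higher. The mean log2 ratios were -0.15 ± 0.43 with A_51_P216397, -0.02 ± 0.29 with A_52_P289213 and -0.09 ± 0.35 with A_52_P448796 (SD, n = 4 each), and their limma adjusted p lay between 0.761 and 0.951. All of these means were negative as measured, yet each was above 0 without replicate 2, at 0.05, 0.03 and 0.08. Replicate 2 stood at -0.77, -0.18 and -0.62 in the order of those probes. For A_52_P289213 the value farthest out was that of replicate 4, at 0.40, and the mean without that replicate was -0.16. The mean of A_52_P289213 was also above 0 without replicate 1 (0.00047) and without replicate 3 (0.04).

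Lfng, a glycosyltransferase that modifies Notch receptors and alters their response to ligands, was measured with 2 probes. With A_52_P187940 the processed signal was 368, 362, 427 and 484 in the RNAs labelled mutant, and 367, 272, 419 and 400 in the RNAs labelled wild type. The gap was visible in replicates 2 and 4, and the groups overlapped. The mean log2 ratio was 0.18 ± 0.20 (SD, n = 4) with this probe and -0.05 ± 0.22 with A_51_P201226, at limma adjusted p of 0.757 and 0.881. The processed signal of the second probe lay between 72.8 and 89.2 in the RNAs labelled mutant and between 77.3 and 87.5 in the RNAs labelled wild type. Its log2 ratio averaged -0.31 on arrays with the mutant RNA in Cy5 and 0.22 on arrays with it in Cy3. The sign of its mean thus followed the dye, although replicate 1 was below 0 in both orientations, at -0.41 and -0.12.

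The wider Notch pathway was described with a list of 46 further genes, of which 41 were tested. The others were not analysed here. Of the 41 genes, 24 were above 0 and 17 were below. Their median was 0.04 on the log2 scale, the same as the median of 0.04 over all 17114 named genes tested, of which 58.4% were above 0. By the limma test 0 of the 41 passed the adjusted threshold, and at an unadjusted p under 0.05 there was 1 higher and 1 lower, where the shares over all named genes were 4.14% higher and 1.95% lower. One gene each way of 41 is close to those shares. The higher one was Nrarp, a Notch target that limits the pathway, at log2 ratios of 0.40, 0.72, 0.43 and 0.13 (mean 0.42 ± 0.24, SD, n = 4, limma adjusted p 0.695). The lower one was Adam17, a metalloprotease able to shed Notch receptors, at -0.28, -0.40, -0.30 and -0.73 (mean -0.43 ± 0.21, limma adjusted p 0.648), with a second probe at -0.38.

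Among the nuclear factors, Rbpj, the DNA-binding partner of the receptors, averaged 0.20 ± 0.21 and Hey2, a Hey repressor, 0.28 ± 0.33. Hes7, an oscillating repressor of somite formation, averaged 0.21 ± 0.20, Hes3 -0.36 ± 0.33 and Hes6, which antagonises Hes1, -0.12 ± 0.11 (SD, n = 4 each). Among the genes that process receptors and ligands, Mib1, a ubiquitin ligase needed for ligand activity, averaged 0.25 ± 0.29, its relative Mib2 -0.15 ± 0.21, and Aph1b, a subunit of gamma-secretase, -0.20 ± 0.11, with its other probes up to 0.02. Of the other ligands and receptors, Dll4, an endothelial ligand, averaged -0.15 ± 0.38, Jag2 -0.03 ± 0.25, Notch3, found in mural cells, 0.06 ± 0.07 and Notch4, found in endothelium, -0.10 ± 0.13. None of these means passed the adjusted threshold in the limma fit.

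**Figure D4:**
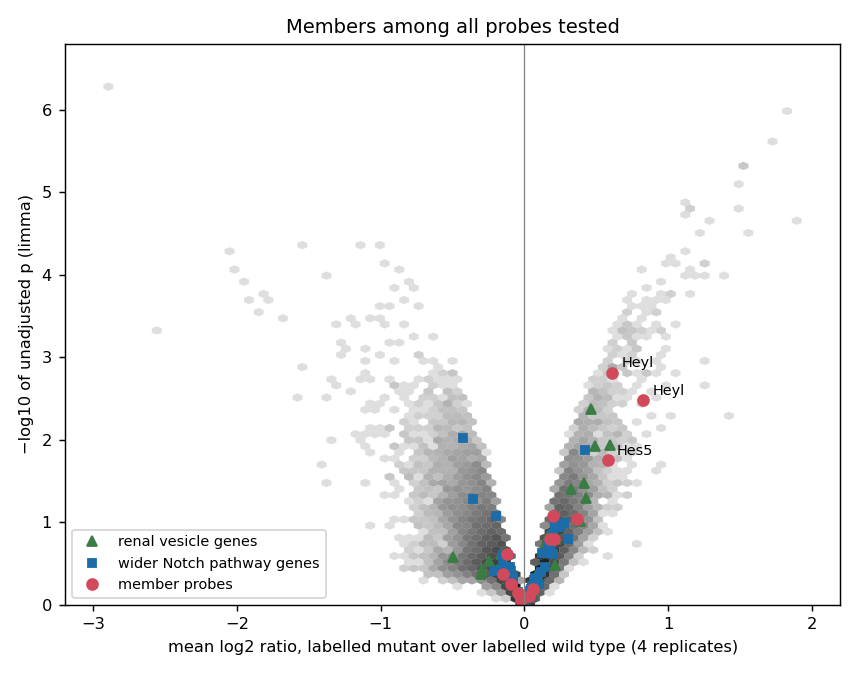
Mean log2 ratio of labelled mutant RNA over labelled wild type RNA (horizontal) against −log10 of the unadjusted limma p (vertical) for all 39520 probes tested (grey, darker where denser), with the 14 member probes as circles, wider Notch pathway genes as squares and renal vesicle genes as triangles. The Heyl probes at 0.83 and 0.61 and the Hes5 probe at 0.58 have the 3 smallest p of the members, and Hes1 lies at 0.37.

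Genes of the renal vesicle, in which the Notch pathway acts, were given by a list of 24, of which 23 were tested. The RNA came from whole kidneys, so it does not show which cells the members' signal came from. Of these, 17 were above 0, the median log2 ratio was 0.17, and 0 passed the adjusted threshold in the limma fit. At an unadjusted p under 0.05 there were 5 higher and 0 lower, where the shares over all named genes were 4.14% and 1.95%. The 5 genes were Bmp2, Greb1, Wnt4 and, named after their values were seen, Pou3f3 and Osr2. Wnt4, the signal that drives the mesenchyme to form the vesicle, had log2 ratios of 0.26, 0.73, 0.20 and 0.77 (mean 0.49 ± 0.30, SD, n = 4). Bmp2, a secreted signal of the vesicle, averaged 0.47 ± 0.16 and Greb1 0.60 ± 0.40. Pou3f3, a transcription factor of the nephron, averaged 0.41 ± 0.35 with one probe and -0.28 with another, and Osr2 averaged 0.32 ± 0.24. The other vesicle regulators were near 0, with Lhx1 at 0.06 ± 0.13, Pax8 at 0.06 ± 0.27 and Fgf8 at 0.16 ± 0.12.

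Marker lists of other kidney cells are described by counts and medians, beside a median of 0.04 over all named genes tested. No list was tested as a set, and the part of these cells in the members' ratios was not tested. Of 20 markers of the bud stalk and trunk, 18 were above 0, with a median log2 ratio of 0.59. Their summed processed signal was between 64093 and 117768 in the RNAs labelled mutant and between 45868 and 64178 in the RNAs labelled wild type. Elf5, Tfcp2l1 and Krt18, the markers of smallest p, averaged 1.29, 1.13 and 1.14. Tfcp2l1 had 3 probes, the lowest at 0.21, and 0 of the 20 passed the adjusted threshold in the limma fit. Of 14 endothelial markers 12 were above 0, with a median of 0.06 and summed signals of 35717 to 56813 in the RNAs labelled mutant and 31662 to 57691 in the RNAs labelled wild type. Of 11 leukocyte markers 2 were above 0, with a median of -0.24 and sums of 6698 to 8355 in the RNAs labelled mutant and 8144 to 9424 in the RNAs labelled wild type. Nephron progenitor markers had 4 of 16 above 0 (median -0.08), with sums of 55308 to 91184 in the RNAs labelled mutant and 57080 to 100003 in the RNAs labelled wild type. Stromal markers had 2 of 13 above 0 (median -0.13), at 175207 to 290701 in the RNAs labelled mutant and 181456 to 354697 in the RNAs labelled wild type. Markers of neurons and glia had 5 of 11 above 0 (median -0.02), at 9343 to 15041 in the RNAs labelled mutant and 13645 to 17665 in the RNAs labelled wild type. Each of these sums is weighted towards the brightest genes of its list. Among the neuron and glia markers the brightest was Ngfr, at a mean log2 ratio of -0.50, unlike the median of that list. Medians of the other lists were 0.06 for the bud tip, 0.01 for podocytes, -0.07 for the proximal tubule, -0.11 for erythroid cells, -0.02 for adrenal and gonad, and -0.0072 for skeletal muscle. In every list, each tested gene was well above background on at least 1 array, so no defining marker was at 0.

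**Figure D5:**
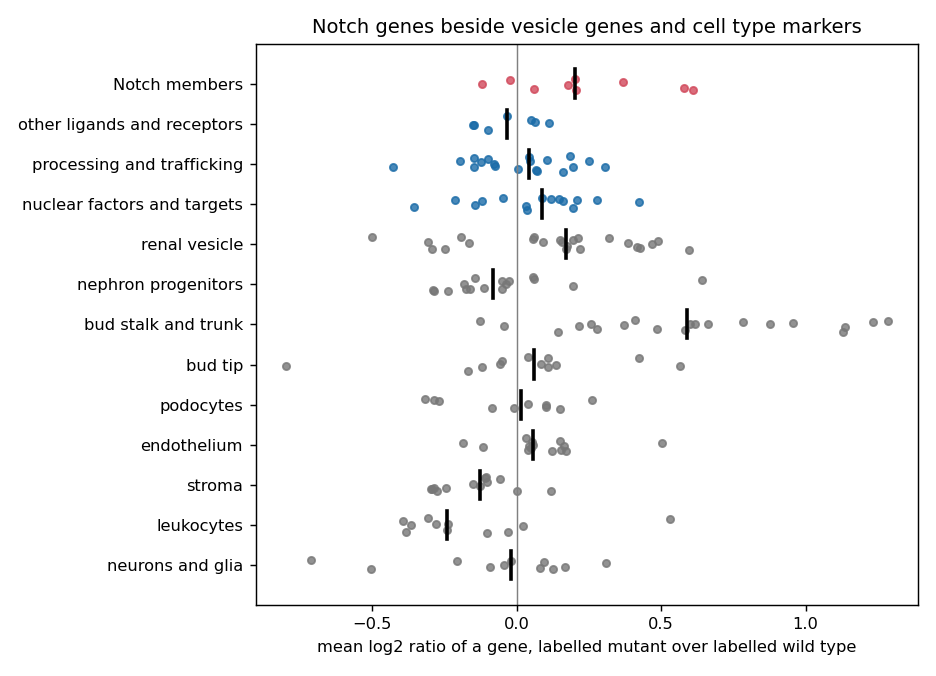
Mean log2 ratio of labelled mutant RNA over labelled wild type RNA for each gene (points, 1 probe per gene, mean of 4 replicates) by list, with a black tick at the median of the list. The medians lie at 0.59 for the bud stalk and trunk, 0.17 for the renal vesicle and -0.24 for leukocytes, and the 9 Notch members run from -0.12 to 0.61.

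The likeness of other genes to Heyl was taken as Pearson's r of the log2 processed signal over the 8 RNAs with probe A_52_P337259, among 17047 named genes. These RNAs share arrays in pairs, and the median r over all genes was 0.385, so the values are a description. The 5 most similar genes were Fzd10, a Wnt receptor (r = 0.983), Pde8b, a cyclic nucleotide phosphodiesterase (0.977), Sorbs2, an adaptor of the cytoskeleton (0.970), Kif12, a kinesin (0.969) and Trpv4, a cation channel (0.961). In all, 60 genes were above 0.9. The other Heyl probe, A_51_P339417, had an r of 0.81 with A_52_P337259, below those 5 genes. The ranking thus describes likeness to A_52_P337259 and not to Heyl as a gene. The mean log2 ratios of the 5 lay between 0.47 for Sorbs2 and 0.87 for Kif12, and a second Fzd10 probe stood at -0.04. Among the other members r was 0.716 for Hes5, 0.693 for Lfng, 0.671 for Dll1, 0.665 for Jag1 and 0.615 for Hes1. It was 0.427 for Notch1, 0.322 for Hey1 and 0.017 for Notch2. With each RNA centred on its median, a scale chosen after seeing the data, 41 genes were above 0.9 and the median r was 0.187. Serinc5 (0.983) then came first, followed by Fzd10, Pde8b, Sorbs2 and Kif12. On that scale r was 0.642 for Jag1, 0.638 for Lfng, 0.599 for Hes5, 0.535 for Dll1 and 0.445 for Hes1. It was 0.281 for Notch1, 0.123 for Hey1 and 0.052 for Notch2, so the order of the members depended on the scale.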

How the data were processed

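Whole-kidney RNA was hybridised on two-colour Agilent arrays with 45018 spots, 1639 of them controls. Per the file headers, the authors read the spots out with the scanner software Feature Extraction 10.5.1.1. The deposited log10 ratio is red (Cy5) over green (Cy3) processed signal, and the deposited processed signals are intensity values after background subtraction and dye normalization by that software. The authors' deposited table of log2 ratios states no direction.

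The log10 ratios were converted to log2, outlier spots were left out and spots of a probe averaged. Ratios were turned to mutant over wild type by the dye labels, and the 2 arrays of a replicate averaged. A probe was kept where 4 or more of the 8 arrays had it well above background in either channel (39520 of 41174 probes) and its ratios were tested against 0, two-sided, in R 4.3.3 using limma 3.58.1, and p-values were adjusted by Benjamini and Hochberg's method over all probes. The limma fit moderated the variance of each probe towards that of all probes tested. The number of arrays limits precision. Processed signals of an RNA are means of its 2 dye orientations.

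Accessions of 25097 probes were named through RefSeq's table of GRCm38.p6. The array design cites another build, so the only positions given are those of the promoter windows, on GRCm38.p6. In lists, the probe of highest mean signal stood for a gene. Members and lists were chosen with earlier results of these data known. Named genes were the members, Hdac2, from the wider pathway up to 5 genes in each direction of smallest p plus 8 set genes, from the vesicle list 4 set genes plus 3 of smallest p, up to 3 markers per list, and the 5 genes most like the member of smallest p. Within replicates, deviations of the 2 RNAs from their group means correlated at 0.572 to 0.78, and each RNA correlated best with its array partner. The ratio keeps this pairing by array. Alternatives covered background correction, centring, filters, replicates, weights, slide, dye orientation and probe choice.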

Additional observations from a re-analysis of the deposited data

Results flagged for a closer look

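Probe A_52_P448796 of Notch2 stood far from its group in replicate 2, at a log2 ratio of -0.62 of labelled mutant over labelled wild type, where the other 3 replicates lay between 0.0071 and 0.12. Its gap to the nearest value exceeded Dixon's critical value for 4 samples. Chance passes that value in about 1 in 20 groups, and 14 member probes were examined. Replicate 2 also had the widest spread of ratios over all probes.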

How the results depend on the processing

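Over all alternatives run, both Heyl probes, Hes5, Hes1, Dll1, Jag1 probe A_52_P634090 apart from one dye orientation, and Lfng probe A_52_P187940 kept the sign of their means, with ranges of 0.56 to 0.96 and 0.52 to 0.70 for Heyl, 0.24 to 0.92 for Hes5, 0.09 to 0.65 for Hes1 and 0.09 to 0.31 for Dll1. With 4 replicates and no member called, small means cannot be told from 0. Mapping probes by a gene name column was planned and not run. Causes of the shifts below were not tested.

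Probes called over all probes were 7, and 1 with normexp and loess, 2 with no filter, 14 with all 8 arrays well above background, 1 with slide as a term, 0 within slide 1, 452 within slide 2, 1 with the mutant RNA in Cy5 alone, 36 in Cy3 alone, and 0 to 10 when one replicate was left out. The replicate block on 8 arrays called 133 probes and 2 member probes, the Heyl probes at means of 0.83 and 0.61, and changed no other call of a member or of the wider pathway and vesicle lists; array weights (0.18 for replicate 2, 4.07 for replicate 3) called 462 and 2, at 0.64 for both. Unadjusted p under 0.05 held for 2375 probes, and for 7457 with weights, 758 within slide 1, 4662 within slide 2, 6086 in Cy3 alone and 905 to 3127 without one replicate.

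With normexp and loess the members' median was 0.020, with 5 probes at p under 0.05, the wider pathway's median -0.022 and the bud stalk's 0.48. Hes7 turned to -0.0050, Hey1 to 0.029, Jag1 probe A_51_P280906 to -0.020, Jag2 to 0.019, Notch1 to -0.10 and Pax8 to -0.028. With weights the wider pathway's median was -0.022, erythroid 0.058 and proximal tubule 0.029, and Lfng probe A_51_P201226 turned to 0.025, Notch1 to -0.070, Notch2 probe A_52_P448796 to 0.079 and Pax8 to -0.079. In Cy3 alone the bud stalk median was 0.74 and the proximal tubule's -0.24. Dll4 turned to 0.023, Hes6 to 0.081, Jag1 probe A_52_P634090 to -0.0046, Lfng probe A_51_P201226 to 0.22, Mib2 to 0.020, Notch1 to -0.017 and Notch2 probe A_52_P289213 to 0.085. In Cy5 alone the bud stalk median was 0.42 and the muscle median 0.064. Jag1 probe A_51_P280906 turned to -0.052, Mib1 to -0.013, Notch2 probe A_52_P448796 to 0.045 and Pax8 to -0.081.

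Within slide 1 the members' median was 0.22 and the bud stalk's 0.49, and Jag2 turned to 0.12. Within slide 2 the bud stalk median was 0.72, erythroid 0.030 and proximal tubule 0.082. Dll4 turned to 0.073, Jag1 probe A_51_P280906 to -0.066, Lfng probe A_51_P201226 to 0.14, Notch1 to -0.11, Notch2 probes A_51_P216397, A_52_P289213 and A_52_P448796 to 0.052, 0.090 and 0.062, and Pax8 to -0.10. Without one replicate, Lfng probe A_51_P201226 ranged from -0.13 to 0.029, Notch1 from -0.057 to 0.12, the Notch2 probes from -0.27 to 0.053, -0.16 to 0.044 and -0.16 to 0.082, Jag1 probe A_51_P280906 from -0.018 to 0.11, Dll4 from -0.27 to 0.029, Jag2 from -0.15 to 0.026, Pax8 from -0.080 to 0.11, the erythroid median from -0.17 to 0.068 and the proximal tubule median from -0.062 to 0.040. The podocyte median was -0.027 with all probes of a gene averaged. Median centring turned the podocyte median to -0.012, lowered the wider pathway's to 0.014 and put the muscle median at -0.034, and it kept the sign of the other list medians and of the member probes.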
